A study of Mus musculus with 18 samples.

Results

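Nuclear RNA of soleus, a slow postural muscle, was compared with nuclear RNA of the extensor digitorum longus (EDL), a fast muscle that lifts the toes. The comparison takes, by their labels, the 3 soleus nuclei arrays and the 3 EDL nuclei arrays out of the 18 arrays of the series. The other arrays hold the cytoplasmic RNA of the same preparations and both fractions of tibialis anterior. Of these the 6 soleus and EDL cytoplasm arrays are compared below. The tibialis anterior arrays enter the quantile normalization, which took all 18 arrays together, and otherwise only fits run as alternatives. All animals were untreated CD1 female mice aged 3 months. Each array carried the RNA of nuclei pelleted from 1 pool of 5 to 10 myofibers, which had been freed with collagenase and picked by hand as intact fibers. Replicates 1, 2 and 3 came from mice 3 and 4, mice 5 and 6, and mice 7 and 8, in both muscles. A pool mixes the fibers of a pair of mice. The paper's methods state that fibers were classified before pooling, but the labels give no fiber type of a pool. Each value is therefore read as that of the muscle's picked fibers and not of 1 fiber type. The 6 arrays lay on 1 slide, and 3 arrays per muscle limit the precision of every value. On it EDL arrays 1 to 3 lay in columns 1, 1 and 2 and soleus arrays 1 to 3 in columns 4, 3 and 2. An effect of position was not tested.

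A myofiber is a single long cell with many nuclei, and its speed is set by which versions of the contractile proteins those nuclei make. Slow fibers use the slow (beta) myosin heavy chain, slow troponins and the cardiac-type calcium pump, and burn fat and lactate in mitochondria. Fast fibers use the fast myosin heavy chains, buffer calcium with parvalbumin and draw more on glycolysis. RNA in the nucleus holds new transcripts together with RNA retained there, so it is read here as nuclear RNA level and not as a rate of transcription. Carry-over of cytoplasmic RNA into the pelleted nuclei was not tested.

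Levels are log2 of the scanner's intensity after quantile normalization, a difference is soleus minus EDL on that scale, and a probe was called at an adjusted p of 0.05 in limma. Within a muscle the 3 arrays correlated at 0.984 to 0.986 (EDL) and 0.990 (soleus) across probes, and at 0.973 to 0.977 between muscles. The median SD between arrays was 0.135 in EDL nuclei and 0.125 in soleus nuclei, against 0.251 and 0.372 in cytoplasm. The nuclear RNAs Neat1 and Malat1 were brighter in nuclei than in cytoplasm in both muscles. Neat1 averaged 13.44 and 12.83 in soleus and EDL nuclei against 10.61 and 10.27 in cytoplasm, and Malat1 averaged 9.35 and 9.41 against 5.91 and 6.26. Every gene of the slow contractile list, which was chosen with earlier results of these data known, was higher in soleus, as described below. Soleus cytoplasm array 1 stood apart from its replicates for fast genes. It read 11.59 for Myh4, the fast 2b myosin heavy chain, where the other soleus cytoplasm arrays read 7.29 and 7.36. The soleus nuclei array of the same mice did not stand apart for Myh4 (10.48, 10.44 and 10.61).

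The muscles differed at 6763 of 44568 probes tested, 15.2% of the total. Of these 4080 were higher in soleus (9.15% of probes tested) and 2683 lower (6.02%). At every one the 3 soleus arrays did not overlap the 3 EDL arrays. That rests on the same values as the call and is no separate evidence. Most differences were small, with a median size of 0.588 and a smallest of 0.252. A difference of at least 1, which is 2-fold, was called at 1233 probes (782 higher and 451 lower), and a difference of at least 2 at 176 (119 higher and 57 lower). By class, 12.7% of coding probes were higher and 5.96% lower (2938 and 1380 of 23137). Among 12870 probes of lincRNA regions, the intergenic intervals that the array covers, 669 were higher and 738 lower (10.9% in all). The median over all tested probes was 0.0155, and differences are relative to that bulk. With no scaling between arrays the median was 0.319 and 18109 probes were called, 93.3% of them higher in soleus against 60.3% here. With the mouse pairs as a block 1880 probes were called, and with 1 array left out 3310 (without soleus array 1) to 4569 (without EDL array 3). By the labels, the spread behind these p-values is between pools of fibers from different pairs of mice. At probes repeated on the array, the SD of nuclear array means was 0.0678 (soleus) and 0.0601 (EDL). Spots alone would give 0.0360 and 0.0384. The SD between arrays over that between spots was 0.567 and 0.472 in nuclei, against 1.67 and 1.30 in cytoplasm. Why the nuclear arrays varied less was not tested.

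**Figure D1:**
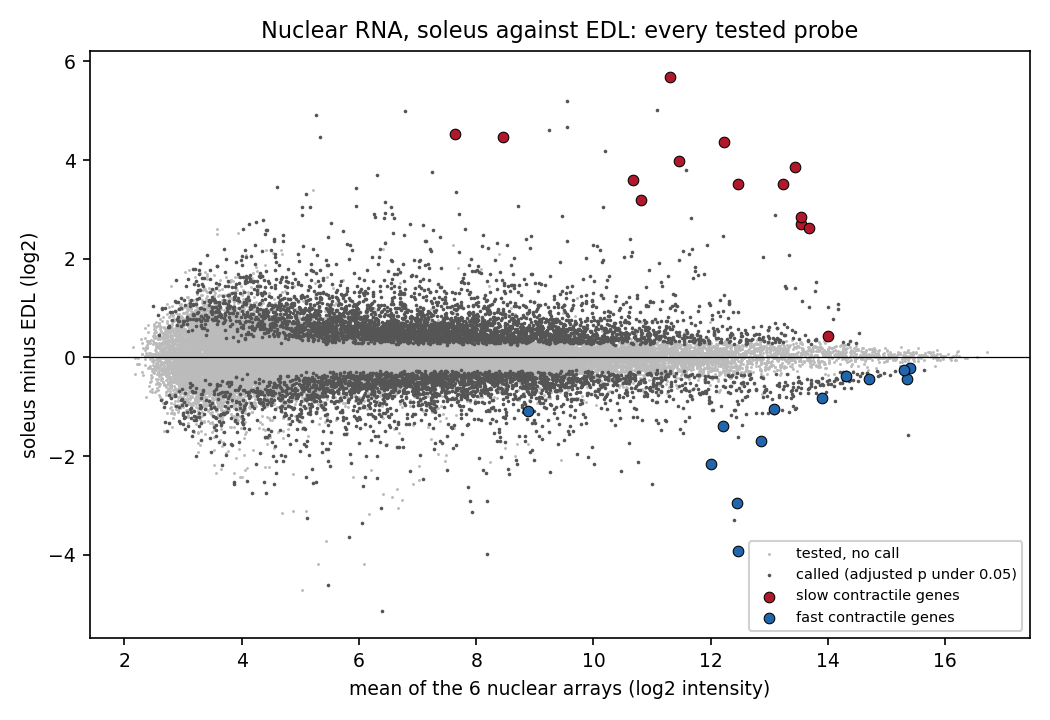
Soleus minus EDL (log2) against the mean of the 6 nuclear arrays (log2 intensity) for every tested probe, with called probes in dark grey, slow contractile genes in red and fast contractile genes in blue. All 14 slow genes lie above 0 and all 13 fast genes below 0, with slow genes reaching 5.68 and fast genes -3.92.

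Markers of other cells attached to picked fibers also moved, and their part in the results below was not tested. Of 13 Schwann cell and nerve markers 11 were lower in soleus and 1 higher (92.3% called, against 15.2% of all probes). Their median difference was -0.69, and their summed intensity was 2842 to 3099 in soleus and 4427 to 4640 in EDL. Myelin basic protein, Mbp, read 7.34, 7.47 and 7.53 on the soleus arrays and 8.77, 8.66 and 8.69 on the EDL arrays (difference -1.26, adjusted p = 0.000856), while the adhesion molecule Ncam1, which muscle also makes, was higher in soleus by 0.78. Of 7 tested erythroid markers 5 were lower (71.4% called), and the summed intensity was 9311 to 9943 in soleus against 16030 to 16640 in EDL. The globin gene Hba-a1 differed by -0.78 and Hbb-b2 by -0.94.

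In the opposite direction, 7 of 10 markers of tendon and the myotendinous junction were higher in soleus (2 with the mouse pairs as a block), with a summed intensity of 31130 to 34960 against 21040 to 23820. Scx, a tendon transcription factor, read 10.75, 10.59 and 10.83 in soleus and 9.70, 9.90 and 9.72 in EDL. Col22a1, a collagen of the junction where fiber meets tendon, differed by 1.45. Of 10 tested satellite cell markers 6 were higher in soleus, 1 with the block, and 3 without any 1 of the soleus arrays. Their defining genes were near the floor of detection. Myf5 had no value on any array, Calcr had a value on 1 EDL array only and Pax7 read 5.23, 4.88 and 4.71 in soleus against 3.59, 2.68 and 3.88 in EDL, where it was not well above background on any array. Pax7 was at least 2.47-fold higher, with an adjusted p of 0.0312 in the fit, 0.0718 in the blocked fit and 0.064 to 0.0948 without EDL array 1 or any 1 soleus array. The summed satellite cell intensity, 14440 to 15850 in soleus and 10300 to 11150 in EDL, was mostly Des, which fibers make as well. None of 13 macrophage and leukocyte markers was called. Of 14 endothelial markers 1 was called (7.14%), and of 11 smooth muscle and pericyte markers 1 (9.09%), both lower in soleus. Over all probes 15.2% were called. Periostin (Postn), a matrix protein of the fibroblast list, was higher by 2.21, while 9 of the 13 genes of that list were not called. Of 12 myofiber markers 3 were higher and 2 lower (1 and 1 with the block, 1 lower without any 1 array), from -1.02 at Ckm to 1.98 at Actn2, a Z-disc actinin, with a median of 0.05. Acta1, skeletal actin, differed by 0.09 and Ttn, titin, by 0.05, neither of them called, and the summed myofiber intensity was 112100 to 117400 in soleus and 111400 to 114200 in EDL.

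The slow contractile genes were higher in soleus nuclei without exception. All 14 listed genes were called, against 9.15% of all probes called in that direction, with a median difference of 3.56 (13 genes with the mouse pairs as a block). The largest difference of any probe was at Tnni1, slow skeletal troponin I, the inhibitory subunit that holds the thin filament off until calcium arrives. Tnni1 read 14.10, 14.16 and 14.15 on the soleus arrays and 8.54, 8.38 and 8.46 on the EDL arrays, a 51.1-fold difference (5.68 ± 0.07 SE, adjusted p = 1.64e-05). The array's probe for it is shown because it carries this largest value. Its 60 bases match chr1:137705328-137706203 on the plus strand of mm9, where they span 876 bases of genome, so the 60 bases are not continuous there.
Tnni1: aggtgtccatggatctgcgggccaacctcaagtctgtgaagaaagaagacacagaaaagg

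The other subunits of slow troponin followed. Tnnc1, which binds calcium in slow and cardiac troponin, read 14.42, 14.33 and 14.45 in soleus and 10.04, 10.04 and 10.03 in EDL (20.6-fold, difference 4.36 ± 0.07 SE, adjusted p = 1.64e-05). Tnnt1, the subunit that ties troponin to tropomyosin, was 6.20-fold higher (2.63 ± 0.08 SE). Tpm3, the slow tropomyosin, was 7.23-fold higher, with soleus arrays at 14.95, 14.94 and 15.00 and EDL arrays at 12.06, 12.24 and 12.03. In each of these genes the lowest soleus array lay more than 2 log2 units above the highest EDL array.

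Among myosin light chains, which brace the lever arm of myosin, Myl3 read 15.31, 15.37 and 15.39 in soleus and 11.55, 11.41 and 11.54 in EDL (14.5-fold, difference 3.85 ± 0.07 SE, adjusted p = 3.15e-05). Myl2 was higher by 2.70 and Myl6b by 4.54. Of the Z-disc and M-band genes, Myoz2, a calcineurin-binding protein of the Z-disc, read 10.68, 10.58 and 10.81 against 6.30, 6.21 and 6.18, a difference of 4.46. Myom3, an M-band protein, read 12.47, 12.41 and 12.52 against 8.88, 8.87 and 8.88, a difference of 3.59. The stretch-linked genes Csrp3 and Ankrd2 were also higher (differences 3.20 and 3.51), but EDL array 3 read above its replicates for both, at 10.13 for Csrp3 where the others read 8.67 and 8.85, and at 11.43 for Ankrd2 where the others read 10.18 and 10.50. The smallest difference of the list was that of Mybpc1, slow myosin-binding protein C, at 0.43, with an adjusted p of 0.0167 that became 0.0775 in the blocked fit and 0.0512 to 0.0563 without EDL array 2 or without any 1 soleus array.

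Among the 9 sarcomeric myosin heavy chains, the motor proteins that set shortening speed, 5 were higher in soleus and 3 lower. Their share called was 88.9%, against 15.2% of all probes. Myh7, the slow (beta) chain, read 14.97, 14.99 and 15.03 in soleus and 11.41, 11.60 and 11.41 in EDL (11.5-fold, difference 3.52 ± 0.08 SE, adjusted p = 5.6e-05). Myh7b, an ancient relative of Myh7, was 15.8-fold higher. Myh2, the fast oxidative 2a chain, was 2.03-fold higher, with soleus at 14.17, 14.16 and 14.23 and EDL at 13.19, 13.14 and 13.17. The other fast chains ran the opposite way. Myh4, the 2b chain, read 10.48, 10.44 and 10.61 in soleus and 14.44, 14.54 and 14.32 in EDL (15.2-fold lower, difference -3.92 ± 0.09 SE, adjusted p = 5.6e-05). Myh1, the 2x chain, was 1.76-fold lower (difference -0.82 ± 0.08 SE, adjusted p = 0.00246). The soleus arrays thus ran from far above EDL for Myh7 to far below it for Myh4, with Myh2 and Myh1 in between.

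The developmental and specialised chains also differed. Myh3, the embryonic chain, was 3.79-fold higher in soleus, reading 10.35, 10.40 and 10.40 against 8.47, 8.49 and 8.42. Myh13, the extraocular chain, was 3.59-fold lower. Myh8, the perinatal chain, differed by -0.21 and was not called (adjusted p = 0.092). The 2 probes of Myh6, the alpha chain of the heart, were both higher but not by the same amount, 4.60 at chr14:55584132-55584191 and 1.53 at chr14:55560774-55560833 of mm9. A probe named LOC674761 abuts the Myh7 probe on chromosome 14 and was higher by 2.89. The probes of the myosin genes share no run of more than 10 bases with each other on the same strand. Matches of these probes to the transcripts of other myosin genes were not examined.

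Fast contractile genes were lower in soleus. Of 13 listed genes 11 were called lower and none higher (7 lower with the mouse pairs as a block), against 6.02% of all probes called in that direction, and the median difference was -1.05. The differences fell into a large and a small set. Mybpc2, fast myosin-binding protein C, read 11.12, 10.75 and 11.02 in soleus and 13.99, 13.98 and 13.81 in EDL (7.79-fold lower, difference -2.96 ± 0.12 SE, adjusted p = 0.000241). Actn3, the fast alpha-actinin of the Z-disc, read 11.11, 10.76 and 10.93 against 13.17, 13.21 and 12.89 and was 4.46-fold lower. Myoz1 (3.26-fold), Mylk2, the kinase of the fast regulatory light chain (2.63-fold), and Myom2 (2.07-fold) were lower as well.

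The fast light chains differed unequally, and the fast troponins less than the genes above. Mylpf, the fast regulatory light chain, read 8.35, 8.15 and 8.52 in soleus and 9.45, 9.59 and 9.23 in EDL, a difference of -1.08 (adjusted p = 0.00683, 0.0570 in the blocked fit). Tnni2, fast troponin I, read 15.34, 15.24 and 15.30 in soleus against 15.47, 15.70 and 15.35 in EDL, so the groups nearly met, and it was not called (adjusted p = 0.239). Tnnc2 was not called either (difference -0.26, adjusted p = 0.0802). Tnnt3, fast troponin T, differed by -0.44 with an adjusted p of 0.0211 (0.0890 in the blocked fit), and Myl1, the fast essential light chain, by -0.43 with an adjusted p of 0.0226 (0.102 in the blocked fit). Tnnt3 and Myl1 lost the call without any 1 array other than EDL array 3, at an adjusted p of 0.0559 to 0.0726. Slow troponin genes therefore differed by 2.63 to 5.68 between the muscles where their fast counterparts differed by -0.44 to -0.21.

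**Figure D2:**
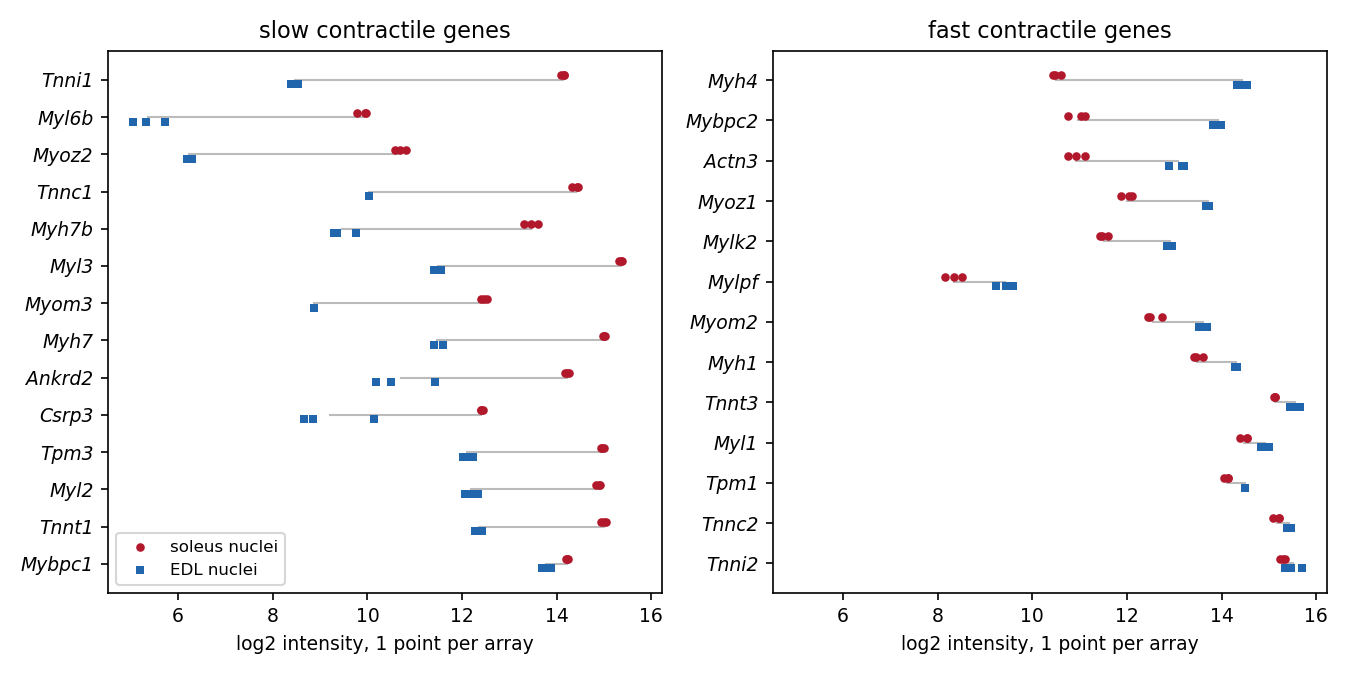
Log2 intensity of each slow (left) and fast (right) contractile gene, 1 point per nuclear array, soleus as red circles and EDL as blue squares, with a grey line between the group means. The slow genes separate widely, from 5.68 at Tnni1 to 0.43 at Mybpc1, while the lower end of the fast panel holds genes such as Tnni2 whose points nearly touch.

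RefSeq promoters (GRCm38.p6, 250 bases upstream of the listed start) were available for all 14 slow contractile genes, and 4 promoters of contractile genes are shown to set sequences that muscle factors are known to bind beside the nuclear differences. Motifs were searched on both strands. The M-CAT motif, bound by TEAD factors (CATTCC), was present in 3 of the 14 slow promoters (Myh7, Myl3 and Tnnc1) against 12.6% of all 27025 promoters. The E-box of the MyoD family (CANNTG) was present in 14 of 14 against 66.0% of all promoters, and a MEF2 site (CTA and TAG with NNNN between them) in 1 (Myoz2) against 3.2%. Of the 13 fast genes 7 had a promoter in the table, too few for a share of the list. Among these 7, 5 held an M-CAT match (Myh1, Myh4, Myl1, Tpm1 and Mybpc2) and 6 held an E-box. Capitals mark M-CAT matches and, in Myh4, also TATA boxes (TATAAA).
Myl3 (slow, 14.5-fold higher in soleus, chr9:110763428-110763677, plus strand): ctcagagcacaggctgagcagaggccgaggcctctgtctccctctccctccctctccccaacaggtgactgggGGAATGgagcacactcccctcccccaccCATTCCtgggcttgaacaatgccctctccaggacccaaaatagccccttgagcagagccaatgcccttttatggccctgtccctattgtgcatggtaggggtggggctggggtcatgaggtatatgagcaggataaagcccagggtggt
Tnnc1 (slow, 20.6-fold higher, chr14:31208062-31208311, plus strand): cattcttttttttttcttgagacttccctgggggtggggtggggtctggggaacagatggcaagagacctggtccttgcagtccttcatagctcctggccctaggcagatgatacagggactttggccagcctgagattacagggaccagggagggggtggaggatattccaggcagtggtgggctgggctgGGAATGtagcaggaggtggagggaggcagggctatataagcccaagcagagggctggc
Myh4 (fast, 15.2-fold lower, chr11:67237562-67237811, plus strand): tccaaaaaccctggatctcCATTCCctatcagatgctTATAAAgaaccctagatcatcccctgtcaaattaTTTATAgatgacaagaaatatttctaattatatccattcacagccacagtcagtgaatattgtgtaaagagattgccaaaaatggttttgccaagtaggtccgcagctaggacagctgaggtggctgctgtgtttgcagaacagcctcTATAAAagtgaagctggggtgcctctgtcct
Mybpc2 (fast, 7.79-fold lower, chr7:44524670-44524919, minus strand): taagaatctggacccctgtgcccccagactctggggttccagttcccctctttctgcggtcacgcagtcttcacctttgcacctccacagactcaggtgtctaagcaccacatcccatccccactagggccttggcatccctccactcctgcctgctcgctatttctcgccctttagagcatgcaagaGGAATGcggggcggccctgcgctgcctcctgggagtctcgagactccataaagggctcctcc
The M-CAT matches begin 177 and 149 bases before the start in Myl3, 58 in Tnnc1, 231 in Myh4 and 62 in Mybpc2, so the motif stood in genes of both directions. Of the TEAD factors, Tead1 differed by 0.07 and was not called at its brightest probe, while its 2 other probes were called higher, and Tead4 was higher by 0.53 (adjusted p = 0.0140, 0.0618 in the blocked fit and 0.0552 without soleus array 1). A match is a run of letters, and binding was not measured here.

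Calcium handling genes split by fiber type, with 3 of 20 higher in soleus and 8 lower (55.0% called, against 15.2% of all probes). The list's median difference was -0.31. With the mouse pairs as a block 4 were lower, and without any 1 array other than EDL array 3 it was 5. The genes of slow and cardiac calcium handling were the ones that were higher. Atp2a2, the slow calcium pump SERCA2, read 12.13, 12.11 and 12.22 in soleus and 7.11, 6.74 and 7.00 in EDL at the probe with the largest difference (36.8-fold, adjusted p = 4.31e-05), and 18.3-fold higher at its brightest probe. Casq2, cardiac calsequestrin, read 8.49, 8.67 and 8.61 against 6.02, 6.30 and 6.14, 5.41-fold higher. Sln, sarcolipin, a small inhibitor of the pump, read 11.71, 11.95 and 12.03 in soleus, but 8.38, 6.86 and 6.41 in EDL, so its 25.6-fold difference carried a large error (4.68 ± 0.50 SE, adjusted p = 0.00403). EDL array 1 was the bright one.

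Genes of fast calcium handling were lower in soleus. Pvalb, parvalbumin, the cytosolic calcium buffer of fast fibers, had 2 probes that disagreed in size. The brighter probe read 14.73, 14.25 and 14.76 in soleus against 16.18, 16.25 and 16.00 in EDL, a difference of -1.56 (2.96-fold). The other read 10.74, 10.41 and 11.08 against 14.10, 14.09 and 13.95, a difference of -3.31 (9.90-fold), and both were called. Casq1, fast calsequestrin, was 3.05-fold lower, with soleus at 11.68, 11.52 and 11.80 and EDL at 13.26, 13.29 and 13.28. The junctophilins Jph1 and Jph2, which hold the sarcoplasmic reticulum against the surface tubules, were 1.90-fold and 2.04-fold lower. The fast pump Atp2a1 differed by -0.41 (adjusted p = 0.0211, 0.0980 in the blocked fit), far less than its slow partner Atp2a2. The release channel Ryr1 differed by -0.32 (adjusted p = 0.0395, 0.119 in the blocked fit). Atp2a1 was not called without any 1 array other than EDL array 3 (0.0602 to 0.0633), nor Ryr1 without any 1 of the 6 arrays (0.0666 to 0.12).

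Transcription factors linked to fast fibers moved in both directions. Of 14 factors of the fast list 4 were higher in soleus and 4 lower (57.1% called, against 15.2% of all probes). The median difference was 0.15. With the block 2 were higher, as was the case without EDL array 3 or without any 1 soleus array. Maf, a large Maf factor of the fast 2b programme, read 6.57, 6.60 and 6.46 in soleus and 9.10, 9.22 and 9.20 in EDL (6.18-fold lower, difference -2.63 ± 0.08 SE, adjusted p = 9.97e-05), and a second Maf probe was 4.10-fold lower. Eya4, a transcriptional coactivator, was 2.14-fold lower. In contrast, Vgll2, a TEAD cofactor placed in the fast list here, read 12.29, 12.19 and 12.29 in soleus and 11.25, 11.24 and 11.47 in EDL, 1.91-fold higher in the slow muscle. As at all called probes, the soleus and EDL arrays did not overlap for these 3 genes.

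Of the 14 factors of the slow list 4 were higher and 2 lower (42.9% called, against 15.2% of all probes). Their median difference was 0.07, and with the block none was higher and 1 lower. Sox6, a repressor of slow genes, read 6.19, 5.68 and 5.83 in soleus and 7.53, 6.87 and 6.85 in EDL (difference -1.18 ± 0.23 SE, adjusted p = 0.0243). Its adjusted p was 0.0725 without soleus array 2 and 0.076 without soleus array 3. Mef2a, Mef2c and Mef2d differed by 0.08, -0.12 and 0.04 and were not called. Nfatc1, a calcineurin target, differed by -0.40 (adjusted p = 0.0450, and 0.0521 to 0.127 without any 1 array). There was 1 higher call without soleus array 1 and 2 without any other array, and no lower call without soleus array 2 or 3 and 1 without any other array.

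The feedback regulators of calcineurin, the calcium-activated phosphatase that promotes slow genes, were higher in soleus, while its own subunits were lower. Rcan1, a calcineurin inhibitor, read 10.55, 10.54 and 10.40 in soleus and 9.06, 9.15 and 9.51 in EDL (2.39-fold higher, 1.26 ± 0.13 SE, adjusted p = 0.00393). Rcan2, its relative, read 10.16, 10.29 and 10.31 against 8.80, 8.80 and 8.91 (2.68-fold higher, 1.42 ± 0.08 SE, adjusted p = 0.000552). The catalytic subunit Ppp3cb was 1.72-fold lower and the regulatory subunit Ppp3r1 1.93-fold lower. Camk2a, a calcium-dependent kinase, was 2.16-fold lower, and Hdac9, a repressor of MEF2, was 2.64-fold higher. Prkag3, the AMP-kinase gamma subunit known from glycolytic muscle, read 7.52, 7.07 and 7.54 in soleus and 9.83, 9.73 and 9.67 in EDL, 5.15-fold lower. In all, 3 of 16 tested genes of this list were higher and 6 lower (56.2% called, against 15.2% of all probes). Their median difference was -0.03.

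Some regulators of oxidative metabolism were higher in soleus. Of 16 genes of the PGC-1, PPAR and ERR list 7 were higher, 1 lower and 8 not called. This made 50.0% called, against 15.2% of all probes, and the median difference was 0.22. With the block 3 were higher and 0 lower, and 4 were higher without soleus array 1. Esrrb, the orphan receptor ERR beta, read 9.27, 9.42 and 9.31 in soleus and 6.00, 5.90 and 6.05 in EDL (10.2-fold, difference 3.35 ± 0.08 SE, adjusted p = 5.64e-05), while its second probe was not called. Esrrg, ERR gamma, was higher by 2.70, though soleus array 2 read 8.98 where the others read 7.86 and 7.81, and its adjusted p of 0.00707 became 0.0502 in the blocked fit. Ppara, the receptor that switches on fat oxidation, was 2.10-fold higher (9.90, 9.90 and 9.97 against 8.88, 8.84 and 8.84), and both other Ppara probes were higher as well. Perm1, a muscle regulator induced by PGC-1 and ERR, was 2.20-fold higher. Ppargc1a itself, PGC-1 alpha, differed by 0.35 (adjusted p = 0.0287, 0.118 in the blocked fit, and 0.0666 to 0.0948 without any 1 array other than EDL array 3). The receptor Esrra, ERR alpha, differed by 0.44 (adjusted p = 0.0167, 0.0788 in the blocked fit, and 0.0502 to 0.0581 without EDL array 1, soleus array 1 or soleus array 3). Pparg differed by -0.01 and was not called.

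Genes of fatty acid uptake and oxidation were higher in soleus as a group. Of 23 genes 19 were higher and none lower (17 with the block), against 9.15% of all probes called higher. The median difference was 1.05. Lpl, lipoprotein lipase, which frees fatty acids from circulating lipoproteins, read 11.85, 11.77 and 11.90 in soleus and 9.94, 10.03 and 10.22 in EDL (3.42-fold, difference 1.78 ± 0.10 SE, adjusted p = 0.000507). Fabp3, the fatty acid binding protein of heart and slow muscle, read 14.59, 14.54 and 14.54 against 12.98, 13.08 and 13.01, a 2.90-fold difference. Uptake by Cd36 (2.22-fold), activation by Acsl1 (3.07-fold), entry into mitochondria by Cpt1b (2.13-fold), and oxidation by Acadl (3.21-fold) were all represented among the higher genes. Plin5, which couples lipid droplets to mitochondria, was 3.22-fold higher. Pdk4, the kinase that turns off pyruvate oxidation, was 4.09-fold higher, the largest difference of the list, with soleus at 11.41, 11.59 and 11.60 and EDL at 9.24, 9.28 and 9.98. The 4 genes not called (Slc25a20, Acads, Ucp3 and Pnpla2) differed by 0.32 to 0.45.

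Glycolysis and glycogen breakdown ran the other way. Of 23 genes 17 were lower in soleus and 5 higher (12 and 1 with the block). The 17 and 5 make 95.7% called, against 15.2% of all probes, and the median difference was -0.72. Leaving out 1 array gave 1 (without soleus array 3) to 3 higher calls. Gpd1, cytosolic glycerol-3-phosphate dehydrogenase, read 9.87, 9.57 and 9.71 in soleus and 12.26, 12.39 and 12.17 in EDL (5.89-fold lower, difference -2.56 ± 0.11 SE, adjusted p = 0.000248). Gpd2, its mitochondrial partner in the glycerol phosphate shuttle, was 2.83-fold lower. Phkg1, the catalytic subunit of the kinase that starts glycogen breakdown, was 3.53-fold lower. Pfkm, the committing enzyme of glycolysis, read 12.61, 12.61 and 12.67 against 13.44, 13.50 and 13.46, 1.78-fold lower. The genes called higher were Hk1 (0.34), Hk2 (0.46), Gys1 (0.63), Slc2a4 (0.29) and Ldhb, and of these Ldhb alone was called with the block. Ldhb, the lactate dehydrogenase subunit of heart and slow muscle, read 12.69, 12.69 and 12.92 against 10.47, 10.60 and 10.66 (4.56-fold higher, adjusted p = 0.000346). Its probe shares 55 of its 60 bases with a probe for the gene Gm5514, so the signal of the pair cannot be told apart.

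Genes of oxygen, lactate and phosphate handling moved in both directions. Of 9 genes 4 were higher and 3 lower (77.8% called, against 15.2% of all probes). The median difference was -0.06, which became 0.21 with no scaling. Mb, myoglobin, the oxygen store of red muscle, was 1.98-fold higher (14.61, 14.72 and 14.65 against 13.56, 13.62 and 13.85). Car3, carbonic anhydrase 3 of slow fibers, was 4.23-fold higher. Slc16a3, the lactate exporter MCT4, read 9.89, 9.50 and 9.72 in soleus and 11.82, 11.85 and 11.77 in EDL, 4.32-fold lower. Ckm, muscle creatine kinase, was 2.03-fold lower and Ampd1, AMP deaminase, 2.25-fold lower.

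Nuclear genes of the respiratory chain were called at close to the share of all probes. Of 83 tested genes 68 were not called, 13 were higher and 2 lower, a share called of 18.1% near the 15.2% of all probes, and the median difference was 0.09, beside 0.0155 over all probes. None of the higher ones passed with the block, 4 (without soleus array 1) to 8 passed when 1 array was left out, and scaling to the 75th percentile left 5 higher with a median of -0.04. The whole range of the list ran from -0.65 to 0.64. The complex II subunit Sdha read 10.75, 10.83 and 10.89 in soleus against 10.47, 10.54 and 10.60 in EDL, a difference of 0.28 that was not called (adjusted p = 0.0613). The cytochrome oxidase subunit Cox8a differed by 0.57 (adjusted p = 0.00541, 0.0530 in the blocked fit). The fatty acid list had a median of 1.05 on the same scale.

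Other programmes moved in a few genes each. Among 14 genes of the neuromuscular junction 5 were higher and 3 lower (3 and 1 with the block, and 1 lower without EDL array 1, EDL array 2, soleus array 2 or soleus array 3). That is 57.1% called, against 15.2% of all probes. Colq, the collagen tail that anchors acetylcholinesterase, was 3.02-fold higher, reading 10.67, 10.55 and 10.65 against 9.03, 8.99 and 9.07. Ache, the esterase itself, was 2.10-fold lower (8.12, 7.65 and 7.78 against 8.89, 9.00 and 8.88). The receptor subunits Chrna1 and Chrnd were 2.43-fold and 2.30-fold higher. The enzyme and its anchor thus lay on opposite sides.

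Of the 35 tested genes of positional identity 9 were higher and 2 lower (2 and 1 with the block, 5 and 1 without soleus array 1), with a median difference of 0.01. The share called was 31.4%, against 15.2% of all probes. Hoxa11, a homeobox gene of the middle limb, read 5.49, 5.48 and 5.55 in soleus and 7.21, 7.22 and 7.25 in EDL (3.30-fold lower, difference -1.72 ± 0.07 SE, adjusted p = 0.000188). Meox1 was 1.98-fold higher and Hoxc6 1.51-fold higher. Both muscles lie in the lower hindlimb, so the Hox difference is between neighbours of the same limb segment.

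Small heat shock proteins were among the stress genes higher in soleus. Of 16 listed genes 7 were higher and none lower (median difference 0.22). That is 43.8% called, against 15.2% of all probes. Hspb2 and Hspb8 lost the call in the blocked fit (adjusted p = 0.0525 and 0.0613). Hspb8 lost it without any 1 array as well (0.0521 to 0.103). Hspb7, a small heat shock protein of heart and skeletal muscle, read 13.07, 13.06 and 13.12 in soleus and 10.14, 10.19 and 10.43 in EDL (7.10-fold, difference 2.83 ± 0.10 SE, adjusted p = 0.000144). Cryab (2.02-fold), Hspb6 (2.21-fold), Dnajb4 (2.02-fold) and the cochaperone Bag3 (1.67-fold) were higher too. Hspa1a and Hsp90aa1, the classic heat-inducible genes, differed by -0.40 and -0.03 with no call.

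Genes that respond to handling and to time of day gave the following. Of 24 immediate early genes 3 were lower (Ier2, Nr4a3 and, with an adjusted p of 0.0555 in the blocked fit, Klf2) and none higher. That is 12.5% called, below the 15.2% of all probes. Fos read 11.38, 11.35 and 11.43 in soleus and 11.20, 11.25 and 11.15 in EDL, a difference of 0.19 that was not called. Of 17 tested clock genes 2 were higher and 5 lower (0 and 1 with the block, and 1 and 3 in each fit that left out an array). The share of clock genes called was 41.2%. Hlf, a clock output factor, was 1.55-fold lower. In the atrophy and FoxO list 5 of 19 were higher (2 with the block, 3 without EDL array 2 or without soleus array 3) and none lower. That is a share of 26.3%. The largest was the mitophagy receptor Bnip3, 3.54-fold higher (1.82 ± 0.09 SE). Gabarapl1, which builds autophagosomes, was 1.77-fold higher, while the ubiquitin ligase Trim63 differed by -0.02. The median differences of the immediate early, clock and atrophy lists, -0.12, -0.20 and -0.02, turned to 0.17, 0.13 and 0.33 with no scaling, close to the shift of all probes.

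**Figure D3:**
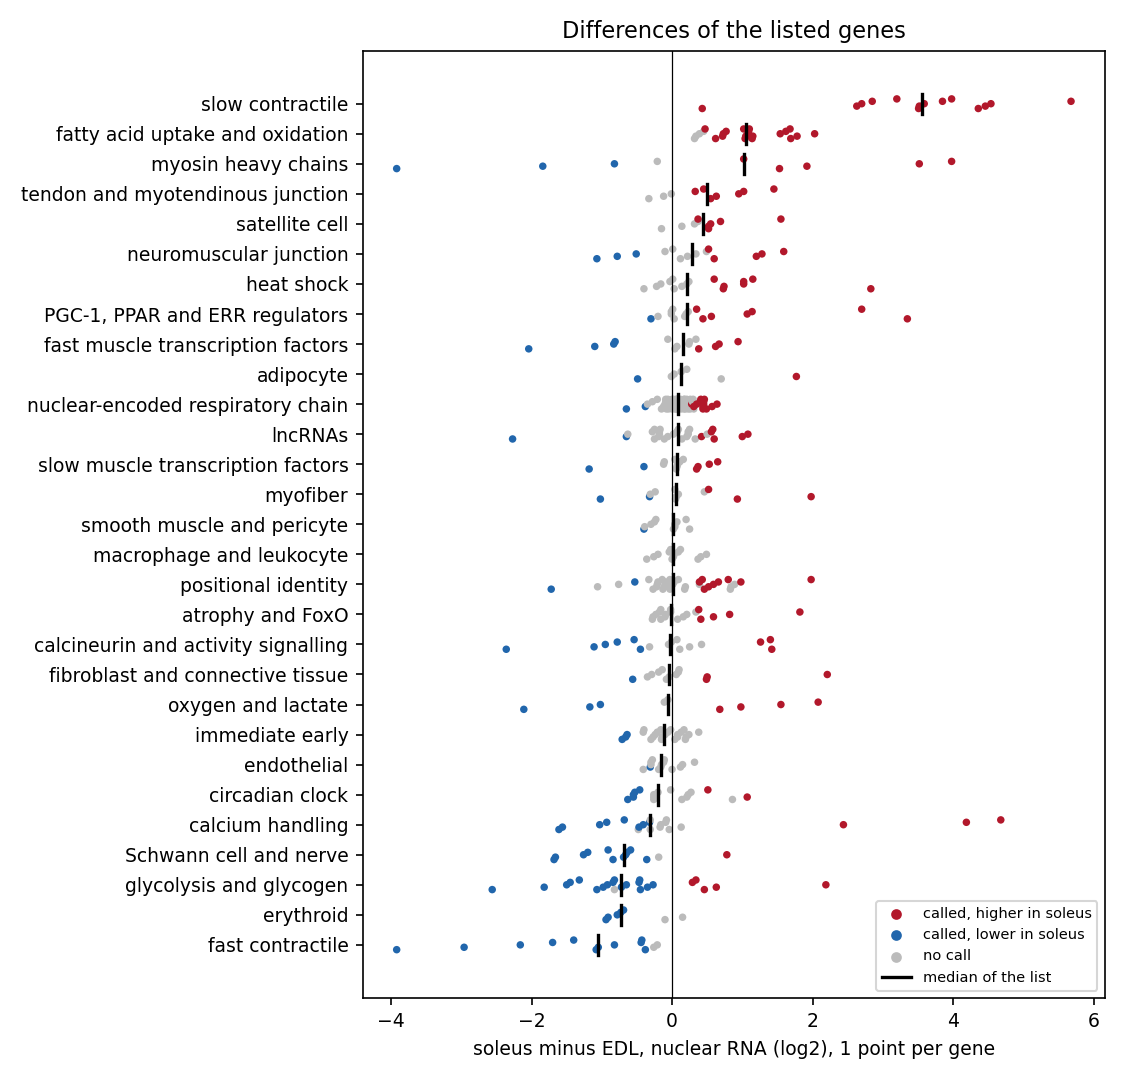
Soleus minus EDL (log2) of every tested gene in each list (1 point per gene), red for genes called higher, blue for lower and grey for no call, with a black bar at the median. Slow contractile genes (median 3.56) and fatty acid genes (1.05) lie to the right, fast contractile genes (-1.05) and glycolysis (-0.72) to the left, and the respiratory chain (0.09) stays near 0.

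Outside the lists, the coding probes with the largest differences included genes with no contractile role. Lgi1, a secreted protein known from synapses, read 9.25, 9.17 and 9.43 in soleus and 4.03, 4.63 and 4.18 in EDL (difference 5.00 ± 0.17 SE, adjusted p = 0.000144), where it was well above background on only 1 array. Among the probes lower in soleus, Cnmd, chondromodulin, a cartilage protein, read 3.88, 3.51 and 4.62 against 7.66, 7.78 and 7.52 (difference -3.65). Gdap1, a protein of the mitochondrial outer membrane, differed by -3.36. Atp1a4, a sodium pump subunit best known from sperm, read 6.31, 6.30 and 6.44 against 9.60, 9.49 and 9.39 (difference -3.14 ± 0.09 SE, adjusted p = 9.38e-05). Sh2d7 differed by -2.90. Sort1, a sorting receptor, differed by -2.55 with soleus array 2 at 2.86 where the others read 4.41 and 4.57, and its adjusted p of 0.0196 became 0.0672 in the blocked fit and 0.0524 to 0.0592 without any 1 EDL array. The calls of the other genes named here held with the block and with any 1 array left out.

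Some probes were well above background in 1 muscle only. Those that were called still had values in both muscles, since the test required them. Well above background on all soleus arrays and on no EDL array were 194 called probes, and 83 were in the opposite case. For these the difference has only a lower bound. Values below the dimmest signal the scanner accepted as well above background were raised to that signal, and other values were used as measured. Gm12680 was at least 35.4-fold lower in soleus, with soleus nuclei at 3.93, 3.80 and 3.74 and EDL nuclei at 8.95, 9.03 and 8.92. Its soleus values were used as measured, so this bound equals its measured fold. Tspan8, a tetraspanin of the cell surface, was at least 14.4-fold lower and Smarca1, a chromatin remodeller, at least 4.86-fold lower. In the other direction a second probe of Lgi1 was at least 16.8-fold higher, Tecrl, a gene tied to calcium handling in the heart, at least 14.4-fold higher, and Scn2a, a neuronal sodium channel, at least 9.24-fold and 7.63-fold higher at 2 of its probes. A further 9 probes were well above background on all soleus arrays with no value on any EDL array, and 6 the reverse. These were not tested.

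Non-coding RNA differed at single loci. Probes of 4 loci with large differences are shown in lower case with nothing marked, since for non-coding regions the probe defines what was measured. These are the unnamed regions with the largest difference in each direction, the RNA in the fast myosin cluster and the locus with the largest bound. Coordinates are those of the array on mm9.
chr1:20669157-20672643_F, plus strand, chr1:20672069-20672128: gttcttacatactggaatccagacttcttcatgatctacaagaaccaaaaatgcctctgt
The same region, chr1:20671883-20671942: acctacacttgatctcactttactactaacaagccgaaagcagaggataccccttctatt
The same region, chr1:20672129-20672188: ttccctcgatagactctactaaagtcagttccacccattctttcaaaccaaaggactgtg
chr8:27925064-27934895_R, minus strand, chr8:27925067-27925126: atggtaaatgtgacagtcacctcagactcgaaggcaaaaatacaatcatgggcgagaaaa
The same region, chr8:27925635-27925694: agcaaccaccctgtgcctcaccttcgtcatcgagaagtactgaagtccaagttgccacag
2310065F04Rik, minus strand, chr11:66925963-66926022: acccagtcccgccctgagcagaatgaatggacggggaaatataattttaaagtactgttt
Gm12680, plus strand, chr4:85428217-85428276: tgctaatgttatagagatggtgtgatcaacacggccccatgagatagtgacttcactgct

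The region chr1:20669157-20672643_F was higher in soleus at all 3 of its probes. The first probe shown read 7.72, 7.60 and 7.67 in soleus and 4.14, 4.11 and 4.46 in EDL (difference 3.43 ± 0.12 SE, adjusted p = 0.000144). The second was at least 7.81-fold higher, with no EDL array well above background. The array's nearest coding probes are those of Il17a, 52.3 kb away, and Pkhd1, 75.4 kb away on the other side. Between these genes RefSeq lists Lincmd1, Mir206 and Mir133b, a muscle long non-coding RNA and the microRNAs of its locus, on GRCm38.p6. Whether the probes lie in Lincmd1 was not settled, since no mm9 annotation was used.

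The region chr8:27925064-27934895_R was the largest decrease among non-coding probes well above background in both muscles. It read 6.16, 6.33 and 6.07 in soleus and 10.10, 10.24 and 10.17 in EDL (15.8-fold lower, difference -3.98 ± 0.09 SE, adjusted p = 5.6e-05), and its second probe was lower as well. The nearest coding probe, of Zfp703, lies 167 kb away and was higher by 1.25.

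2310065F04Rik, a long non-coding RNA within the fast myosin cluster known as linc-Myh, was 4.81-fold lower in soleus. Its arrays read 7.47, 7.47 and 7.29 in soleus against 9.55, 9.61 and 9.86 in EDL (difference -2.27 ± 0.11 SE, adjusted p = 0.000407). The nearest coding probe, of Myh3, 10.2 kb away, was higher by 1.92, opposite to this RNA. Myh4, farther off on the same chromosome, differed by -3.92, in the same direction as this RNA. Gm5532 (3.69), chr1:163527603-163527999_F (2.93), 1500012K07Rik (2.84) and chr1:78591605-78606083_R (2.82) completed the largest non-coding differences higher in soleus. On the lower side stood chr8:70603786-70604243_R and chr10:21463672-21466812_F, both at -1.73, and chr6:37630192-37682692_F at -2.11 with an adjusted p of 0.0377 (0.0790 in the blocked fit, and 0.071 to 0.107 without any 1 array other than soleus array 1).

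Annotated long non-coding RNAs moved less. Of 28 tested lncRNAs of the list 6 were higher and 2 lower (3 higher with the block), with a median difference of 0.08. The share called was 28.6%, against 15.2% of all probes. H19, the imprinted RNA abundant in developing muscle, read 14.74, 14.68 and 14.72 in soleus and 13.59, 13.55 and 13.76 in EDL, 2.11-fold higher, and all 6 of its other tested probes were higher too. Neat1, the scaffold of paraspeckles, was 1.52-fold higher (13.47, 13.36 and 13.48 against 12.83, 12.80 and 12.87). 1110020A21Rik was 2.00-fold higher, reading 7.64, 7.53 and 7.63 against 6.68, 6.47 and 6.64. Kcnq1ot1, an imprinted antisense RNA, was 1.57-fold lower (7.68, 7.85 and 7.83 against 8.39, 8.45 and 8.47). Malat1 (-0.06), Pvt1 (0.09), Gas5 (0.07) and Dancr (-0.25) were not called.

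**Figure D4:**
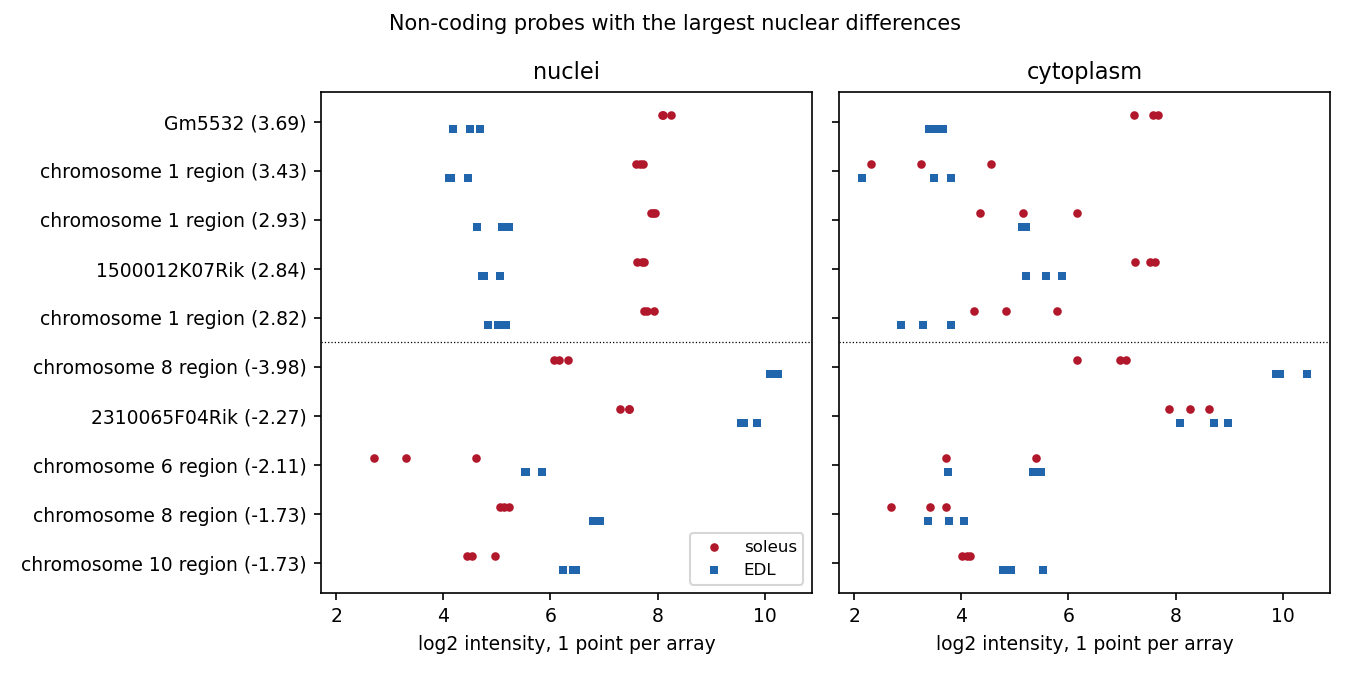
Log2 intensity of the non-coding probes with the largest nuclear differences, 1 point per array, soleus as red circles and EDL as blue squares, in nuclei (left) and cytoplasm (right), with a dotted line between probes higher and lower in soleus. The probes were chosen for large differences without overlap in nuclei, so their separation there follows from the choice. In cytoplasm, which played no part in it, several overlap, such as 2310065F04Rik.

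Few called lincRNA probes lay near a coding probe. Of 1393 with a position, 267 (19.2%) had a coding probe within 5 kb, against 16.1% of uncalled lincRNA probes, and at 80 of these a coding probe was called in the same direction, against 10 (3.75%) in the opposite direction. Among the 1828 uncalled lincRNA probes with a coding probe in that distance the shares were 9.08% and 8.86%. Called probes higher in soleus had a same-direction neighbour at 46 of 134 and an opposite one at 0, and those lower in soleus at 34 of 133 and at 10 (7.52%). These shares are descriptions without a test. The same-direction share was 22.8% with the block, 4.76% with all 18 arrays in the fit, and 23.3% (without soleus array 1) to 30.1% (without EDL array 3) with 1 array left out.

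The same contrast in cytoplasm called far fewer probes, 30 of 45470 (0.0660%), with a larger spread between arrays. Of 6471 probes called in nuclei and tested in both fractions, 5035 (77.8%) had the same sign in cytoplasm, against 58.7% of all 41888 probes tested in both. With no scaling between arrays the share of nuclear calls was 35.4%, of 17504 calls. At differences of at least 1 it was 923 of 1107 (83.4%), and 28 of these were called in cytoplasm, all with the same sign. All slow contractile genes except Myl2, Myl6b and Mybpc1 were called in cytoplasm. Tnni1 differed by 5.47 in cytoplasm (adjusted p = 0.0142), reading 13.18, 13.47 and 12.49 against 8.45, 7.49 and 6.80, and by 5.68 in nuclei. Myh7 differed by 4.73 in cytoplasm (adjusted p = 0.0187) and 3.52 in nuclei. Myh4 differed by -5.03 in cytoplasm and was not called there (adjusted p = 0.281) with soleus cytoplasm array 1 at 11.59. The fatty acid and glycolysis genes named above had the same sign in both fractions and none was called in cytoplasm.

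The test of whether a nuclear difference differed from the cytoplasmic one, the interaction of muscle and fraction, called 6 of 41888 probes (0.0143%). Gm12680, whose probe is printed above, was not well above background on any soleus nuclei array, so its nuclear difference has only the bound given above, while in cytoplasm the soleus arrays read 6.79, 5.56 and 5.69 and the EDL arrays 5.80, 6.78 and 6.78, so the groups overlapped. The fitted interaction, which uses the dim soleus values as measured, was -4.70 (adjusted p = 0.0146). The probe for ENSMUST00000107189, at chr4:85284804-85284863 of mm9 on the same chromosome, read 5.33, 4.86 and 5.08 in soleus nuclei and 7.60, 7.38 and 7.63 in EDL nuclei but differed by 0.08 in cytoplasm (interaction -2.53, adjusted p = 0.00954). The fractions lay on different slides, which cancels only within a fraction. The count was 0 with the mouse pairs as a block (adjusted p of 0.117 to 0.146 for the 6 probes). It was 16, 29 and 34 without soleus cytoplasm array 1, 2 or 3, and 0 or 1 without any 1 nuclear array. Without EDL cytoplasm array 1, 2 or 3 it was 5, 3 and 2. Without soleus cytoplasm array 1, which stood apart, 5 of the 6 were still called.

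**Figure D5:**
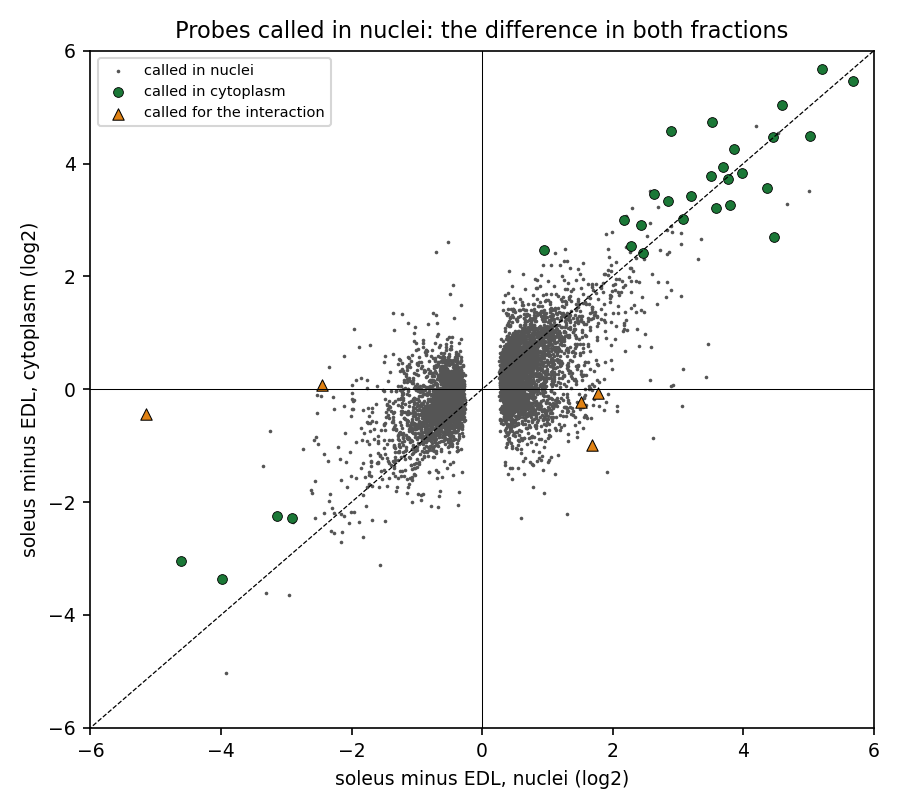
Soleus minus EDL (log2) in cytoplasm against the same in nuclei for the probes called in nuclei, with probes also called in cytoplasm in green, 5 of the 6 probes called for the interaction as orange triangles (the other has no nuclear call) and a dashed line where both fractions are equal. Most large differences fall where both fractions have the same sign (923 of 1107), and Gm12680, dim in soleus nuclei, lies at its measured -5.15 in nuclei and -0.44 in cytoplasm.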

How the data were processed

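RNA of nuclei and of cytoplasm was labelled with Cy3 and hybridised to Agilent mouse arrays, 1 colour and 1 sample per array. The intensity values were made by the authors with Agilent Feature Extraction 10.7.3.1, which subtracted background and detrended each array, and were deposited unscaled. A deposited table of values quantile-normalized by the authors, used for 3668 probes, served as an alternative. Here log2 of the processed intensity was taken for spots positive and significant against background, and control spots and outliers were left out. All 18 arrays were quantile-normalized together, and spots of a probe were then averaged. A probe needed a value on 2 of 3 arrays in each muscle. The muscles were compared with limma 3.58.1 in R 4.3.3 with Benjamini-Hochberg adjustment at 0.05 (residual df 4), after tests on simulated data, and the fractions with an interaction term over 12 arrays. The blocked fit takes the mouse pairs, since by the labels the same mice gave both muscles. Deviations of same-numbered arrays correlated at -0.0552 to 0.00354 over 41426 probes. Members and gene lists were chosen with earlier results of these data known. The text names list genes by their brightest probe, the 10 coding and 5 non-coding probes with the largest differences in each direction, and the 5 largest bounds, from which the text takes a selection. Where a gene's other probes are given, they were chosen after the values were seen. Probes were named by accession (26425), symbol (3988) or synonym (826) in RefSeq, and 24442 kept the array's name. Promoters are from RefSeq on GRCm38.p6, probe positions from the array's mm9 annotation. Some list members are not reported here.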

Additional observations from a re-analysis of the deposited data

Results flagged for a closer look

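At 6 probes the soleus minus EDL difference in nuclei differed from that in cytoplasm by the interaction test, and none of the 6 was called with the mouse pairs as a block. Gm12680 had an interaction of -4.70 (adjusted p = 0.0146), fitted on soleus nuclei values that were not well above background on any array, and a difference of -0.44 in cytoplasm. ENSMUST00000107189 had an interaction of -2.53 (adjusted p = 0.00954). ENSMUST00000059529, at chr8:124968087-124968146 of mm9, had 1.73 (adjusted p = 0.0444), reading 8.68, 8.64 and 8.54 in soleus nuclei and 7.08, 7.15 and 7.09 in EDL nuclei, with soleus cytoplasm at 7.24, 7.06 and 7.27 and EDL cytoplasm at 7.42, 7.17 and 7.63. A probe of chr1:78591605-78606083_R had 1.85 (adjusted p = 0.0444), with 6.09, 6.10 and 6.02 against 4.49, 4.07 and 4.31 in nuclei. The region chr8:49853937-49874087_R had 2.67 (adjusted p = 0.0444) at a probe that was not well above background on any EDL nuclei array and shares 52 bases with a probe of the opposite strand. The region chr4:129497990-129515290_F had 2.56 (adjusted p = 0.0444) and was the only one of the 6 with no nuclear call: soleus and EDL nuclei differed by -0.26, and cytoplasm by -2.82 (2.51, 3.20 and 3.03 against 5.59, 6.10 and 5.51, adjusted p = 0.0331).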

How the results depend on the processing

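Depth, which on arrays is signal over background, limits the dim probes: folds against a group not well above background are bounds, and fitted interactions there use the dim values as measured. The count of 6763 called probes became 18109 with no scaling and 770 with all 18 arrays in 1 fit. It was 1880 with the mouse pairs as a replicate block (1808 of them among the 6763) and 451 of 3668 in the deposited quantile values. A parametric t-test with unequal variances called 8 with Bonferroni and 2205 with Benjamini-Hochberg adjustment. Leaving out 1 array gave 3310 to 4569. With the nuclear arrays of a muscle averaged to 1 sample and the spread taken from cytoplasm, limma called 0 probes (650 at an unadjusted p under 0.05), and so 0 listed genes, 0 slow contractile, 0 fast contractile, 0 fatty acid, 0 glycolysis and 0 Schwann cell genes. Calls kept in all 6 fits with 1 array left out numbered 2706, and 1097 were in none of them. The remaining scalings, filters and background corrections gave 6273 to 9103. The listed genes called were 68 with 18 arrays, 125 with the block and 12 in the deposited values. With 18 arrays 4 fast contractile, 11 fatty acid, 8 glycolysis and 3 Schwann cell genes were called, with the block 7 fast contractile genes, and in the deposited values 0 slow contractile, 0 fast contractile, 0 fatty acid, 1 glycolysis and 0 Schwann cell genes, since few of their probes are in that table. The block ended the call of 100 of 538 single probes and changed no other call. With no scaling 16 differences turned positive: Hdac4 0.29, Hdac5 0.34, Pparg 0.30, Nrf1 0.04, Cox6b1 0.28, Ndufa12 0.25, Atp5j 0.23, Lbx1 0.25, Egr3 0.28, Klf4 0.33, Hsp90aa1 0.28, Kdr 0.29, Tek 0.03, Pdgfra 0.27, Csf1r 0.31 and Aif1 0.30, beside an all-probe median of 0.319. The 6 interaction calls became 1 with array weights per fraction, 19 with 75th percentile scaling, 5820 with no scaling, 0 with the block (3668 unadjusted), 1 with well above background required and 0 to 34 with 1 array left out. Alternatives for the next shares were chosen after seeing the data. The share of lincRNA probes with a same-direction coding neighbour was 62.8% with no scaling, 41.2% with normexp, 42.2% with well above background required, 4.76% with 18 arrays, 22.8% with the block and 23.3% to 30.1% with 1 array left out. The share of nuclear calls with the same sign in cytoplasm, 77.8%, was 35.4% with no scaling, 76.5% with normexp, 75.4% with well above background required and 76.4% with no flag required. Except where the alternative itself has fewer arrays or probes, the cause was not tested.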
